A study of Mus musculus with 3 samples.

Results

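The genes that write, copy and erase DNA methylation were examined in mouse cells whose labels call them embryonic stem cells and give 3 genotypes: wildtype, LIFR KO and gp130 KO, here called LIFR knockout and gp130 knockout. The members are 10 genes, Dnmt1, Uhrf1, Dnmt3a, Dnmt3b, Dnmt3l, Tet1, Tet2, Tet3, Tdg and Mbd4, and every non-control array probe whose accession is a transcript of one of them was taken. They were read by 19 probes, of 39429 probes and 20659 named genes in all. LIFR binds the cytokine LIF, an addition to the medium that keeps mouse stem cells pluripotent. It signals together with gp130, a chain that several other cytokine receptors also use. The labels state standard culture for all groups and give no allele, clone, passage or medium, so whether LIF was present is not given in the sources used here. Total RNA was taken with Trizol and measured as Cy3-labelled cRNA on Agilent arrays of a single colour. Each genotype had 1 array and therefore no replicate, which leaves no test, and so few arrays limit how precise any difference can be. Both comparisons with wildtype share the wildtype array.

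DNA methylation is placed on cytosines of CpG dinucleotides. DNMT3A and DNMT3B set it anew, helped by DNMT3L, a relative without catalytic activity of its own. After replication UHRF1 binds the CpG sites whose new strand is still bare and brings in DNMT1, which copies the mark. The TET enzymes oxidise methylcytosine, TDG cuts out the most oxidised forms, and base excision repair puts back an unmodified cytosine. MBD4 is a glycosylase that removes the thymine left when a methylated cytosine loses its amino group. Mouse embryonic stem cells are known for expressing de novo methyltransferases and TET enzymes together, and the LIF pathway acts through the transcription factor STAT3.

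No member reached a 2-fold difference in either knockout, where 2.82% of genes were that far higher and 1.49% that far lower in the LIFR knockout, and 1.01% and 0.772% in the gp130 knockout. Mbd4 was higher on both knockout arrays, 1.50-fold on the LIFR knockout and 1.54-fold on the gp130 knockout array. Among genes well above background on all arrays, 5.61% passed 1.25-fold upward on both. Dnmt3l was 1.53-fold lower on the LIFR knockout array, a direction that turned with 1 of 12 alternative settings described below, and 1.29-fold lower on the gp130 knockout array. Dnmt3b went opposite ways, 1.26-fold higher on the LIFR knockout and 1.37-fold lower on the gp130 knockout array, and its 3 probes had the same signs. Dnmt1, the maintenance enzyme, differed from wildtype by less than the error of the scanner on both arrays, except at -0.52 on the log2 scale in the LIFR knockout with that same setting.

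The promoters of Mbd4 and Dnmt3b are shown because Mbd4 was more than 1.96 scanner errors above wildtype in both knockouts and Dnmt3b had ratios of opposite sign in the knockouts. Each stretch holds the 250 bases before the start of the gene in RefSeq, build GRCm38.p6, 5′ to 3′ on the strand of the gene, with CpG dinucleotides in capitals. The Dnmt3b stretch is chr2:153649199-153649448 on the plus strand and holds 21 CpG. The Mbd4 stretch is chr6:115853342-115853591 on the minus strand and holds 22 CpG. A median of 6 was found over 32851 such stretches of all genes, so these are CpG-rich promoters.
Dnmt3b: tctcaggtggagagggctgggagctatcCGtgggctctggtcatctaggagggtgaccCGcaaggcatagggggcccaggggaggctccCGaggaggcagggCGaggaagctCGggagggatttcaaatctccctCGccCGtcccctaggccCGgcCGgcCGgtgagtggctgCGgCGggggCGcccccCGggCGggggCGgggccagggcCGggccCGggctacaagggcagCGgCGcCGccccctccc
Mbd4: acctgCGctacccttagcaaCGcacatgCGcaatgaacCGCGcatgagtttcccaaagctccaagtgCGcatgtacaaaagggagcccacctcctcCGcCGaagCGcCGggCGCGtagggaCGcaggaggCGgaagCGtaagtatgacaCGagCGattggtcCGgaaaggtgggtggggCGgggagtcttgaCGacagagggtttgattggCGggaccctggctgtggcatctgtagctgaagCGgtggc

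RefSeq gave 17 such stretches for the 10 members, since some genes have several starts, and 2 stretches of Dnmt3a overlap. Their CpG counts ran from 2 at a Dnmt1 start to 51 at Tet2, with a median of 17. The 3 Dnmt3l starts were poor in CpG, at 3, 4 and 5. A STAT-type string, TTCNNNGAA, was searched on both strands, and 2 of the 17 stretches held it, against 7.02% of all stretches. E2F-type strings, TTTGGCGC, TTTCCCGC and TTTCGCGC, were searched likewise, and 1 start of Dnmt1 and 1 of Uhrf1 held one, against 1.53% of all stretches. The matches are printed with up to 10 bases on either side and the matched letters in capitals, and they overlap no other match of these strings. They lie at chr10:78049705-78049733 (plus) for Dnmt3l, chr10:82629665-82629693 (plus) for Tdg, chr9:20952825-20952852 (minus) for Dnmt1 and chr17:56304118-56304145 (plus) for Uhrf1. The Dnmt1 and Uhrf1 stretches with a match held 26 and 30 CpG, against a median of 6 over all, and TTTCGCGC holds CpG itself. The E2F-type share over all stretches is thus not one over like stretches. Also searched were GGGCGG, in 12 of 17 stretches against 32.7% of all, CCAAT, in 7 against 33.8%, and TATAAA, in 0 against 12.4%. GGGCGG holds CpG as well, and both overlapping Dnmt3a stretches are among its 12. With a median of 17 CpG in the members' stretches against 6 over all, these shares are not over like stretches either. A match is a description of letters, and no binding was measured.
Dnmt3l STAT: cccccaccctTTCCCCGAAgccctctccc
Tdg STAT: aacccacaccTTCAAGGAAacttagagcc
Dnmt1 E2F: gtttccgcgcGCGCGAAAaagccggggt
Uhrf1 E2F: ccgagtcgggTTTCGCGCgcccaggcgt

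Signals below are the scanner's processed brightness, multiplied per array so that the 75th percentile over all probes was that of the wildtype array, with factors of 0.907 for the LIFR knockout and 1.03 for the gp130 knockout array. The error after ± is the error estimate of the scanner software for that spot and leaves out the scatter between cultures. Ratios are on the log2 scale, knockout over wildtype, and their error combines both spots. Of the 20637 named genes with a value on all 3 arrays, 63.6% were well above background on all 3 arrays, a call of the scanner software, and all 10 members were by the probe used. That probe is the one with the highest mean over the 3 arrays among those with a value on each. Of the 19 probes, 18 were well above background on every array and 1, of Tet3, on none. Local background at the members' spots was 17 to 28, while a stray signal of up to 25884 lay elsewhere on the LIFR knockout array, and no member spot lay in it. Lifr, by its 1 probe of 3 above background, had 34.9 on the wildtype array, 27.2 where LIFR was knocked out by the label and 35.6 on the other. Il6st, the gene of gp130, had 329, 335 and 307. The place of these probes in or outside the deleted sequence is not given in the sources used here, so they do not check the labels, and each knockout array is called by its label. Of 10 embryonic stem cell markers 7 were well above background on all arrays, near the 63.6% of named genes with that call. That count does not identify the cells, which are called stem cells by label only. Sox2, Zfp42 and Dppa4 were well above background on no array. Pou5f1, which encodes Oct4, had 31.2 on the wildtype, 20.6 on the LIFR and 20.9 on the gp130 knockout array. Of 10 epithelial markers 9 had that call on all arrays, and of 10 fibroblast feeder markers 5 did, with Pdgfrb and Lum on none. The summed signal of the stem cell markers was 2547.7, 2274 and 2642 on the 3 arrays, and that of the feeder markers 73656, 80408.5 and 86450.2, nearly all of it from Vim. That of the epithelial markers was 76281, 83165.6 and 80577. Past 2-fold were the feeder markers Col1a1, with 70.4, 233 and 95.4 on the 3 arrays and a ratio of 1.73 in the LIFR knockout, and Dcn, at 1.06 in the gp130 knockout, and the epithelial marker Cldn4, at 1.17 in the LIFR knockout. The part of these differences in the members' values was not tested. In such bulk samples fewer cells of a type and less RNA per cell cannot be told apart.

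**Figure D1:**
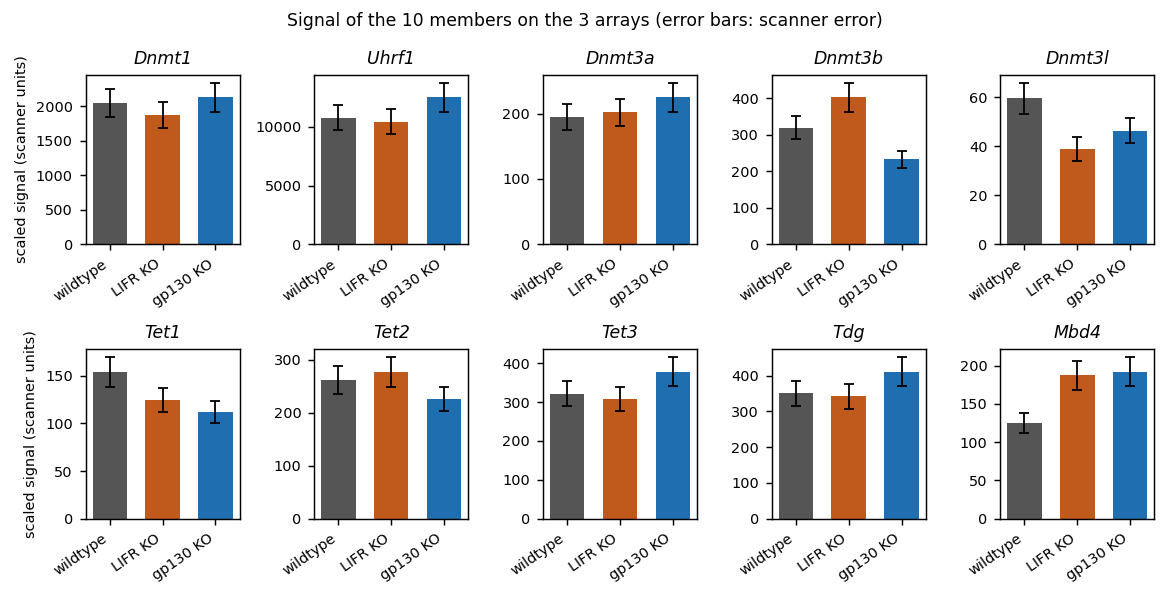
Scaled signal in scanner units of the 10 members on the array of each genotype (wildtype, LIFR knockout, gp130 knockout; 1 each), with bars from 0 and the scanner error as error bars. Mbd4 stands at 125 on the wildtype array and at 187 and 192 on the knockout arrays, Dnmt3b is highest at 402 on the LIFR knockout and lowest at 233 on the gp130 knockout array, and levels are comparable within a gene only.

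The maintenance genes lay close to wildtype except with normexp fitted on all spots, a background correction described below, which put Dnmt1 at -0.52 and Uhrf1 at -0.58 in the LIFR knockout. Dnmt1 gave 2049.6 ± 205 on the wildtype array, 1882 ± 188 in the LIFR knockout and 2131 ± 213 in the gp130 knockout. Its log2 ratios were -0.12 ± 0.20 and 0.06 ± 0.20, within the error in both knockouts, and the first was 0.0019 when the arrays were scaled to their medians. Uhrf1, whose protein leads DNMT1 to newly replicated DNA, had 10770.2 ± 1077, 10439.7 ± 1044 and 12500.5 ± 1250.1. The wildtype and LIFR knockout values lay within their error, at -0.04 ± 0.20, a value that turned to 0.08 with scaling to the medians. The gp130 knockout value was just beyond it, at 0.21 ± 0.20. The other Uhrf1 probe, of another transcript accession, gave -0.23 ± 0.21 and -0.09 ± 0.21, so that the higher value on the gp130 knockout array came from 1 of 2 probes. The 12 replication genes listed beside them, such as those of the MCM helicase, had a median of 0.12 in the LIFR knockout and 0.25 in the gp130 knockout, with 10 of 12 above 0 on each. Over all genes compared the medians were 0 and 0.04, and the share of all genes above 0 was not computed. The part of the replication genes in the Uhrf1 value was not tested.

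The de novo genes took different directions. Dnmt3a, read by 1 probe of accession NM_007872, had 195 ± 19.6 on the wildtype array, 202 ± 20.4 in the LIFR knockout and 225 ± 22.6 in the gp130 knockout. The LIFR knockout value lay within the error of wildtype, at 0.05 ± 0.21, and turned to -0.01 when scaled on the detected probes. The gp130 knockout value was slightly higher, at 0.21 ± 0.21.

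Dnmt3b had 319 ± 32.01 on the wildtype array, 402 ± 40.4 in the LIFR knockout and 233 ± 23.4 in the gp130 knockout. The 3 arrays were thus in the order gp130 knockout, wildtype, LIFR knockout, and each neighbour in it differed by more than the scanner error. The log2 ratios were 0.33 ± 0.20 for the LIFR knockout and -0.45 ± 0.20 for the gp130 knockout. Of genes measured on both arrays, 31.3% and 9.32% lay at least as far from 0. The LIFR knockout ratio was thus an ordinary one for these arrays. The other Dnmt3b probes, of the same accession NM_001003961, gave 0.29 ± 0.21 and 0.14 ± 0.21 for the LIFR knockout. For the gp130 knockout they gave -0.19 ± 0.21 and -0.36 ± 0.21. All 3 probes agreed in sign in both comparisons, though the 0.14 and the -0.19 lay within their errors. The probes read the same RNA on the same arrays, so their agreement does not replicate the knockout difference. Between the knockouts, which uses the same arrays again, Dnmt3b was -0.79 ± 0.21 on the gp130 over the LIFR knockout array, and 4.28% of genes lay at least as far from 0. That value was -0.50 by the median over its probes. Of 13115 genes well above background on all arrays, 61 (0.465%) passed 1.25-fold upward in the LIFR and downward in the gp130 knockout, as Dnmt3b did. Another 56 passed it the opposite way, while 736 passed it upward and 629 downward in both knockouts. Both ratios use the same wildtype array, and the pattern was taken from Dnmt3b itself. The share therefore does not measure how unusual Dnmt3b is. Dnmt3b itself did not pass 1.25-fold in the LIFR knockout under 3 of 12 settings.

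Dnmt3l, read by 1 probe, had 59.6 ± 6.34 on the wildtype array, 38.9 ± 4.98 in the LIFR knockout and 46.3 ± 5.06 in the gp130 knockout. Wildtype was the highest array and the LIFR knockout the lowest. The ratios were -0.62 ± 0.24 and -0.36 ± 0.22. They came to -0.30 and -0.09 with normexp, a background correction that models signal and background together, fitted without the stray signal. With normexp fitted on all spots the LIFR knockout ratio turned to 1.30. The 7 pluripotency markers measured had a median of -0.38 in the LIFR knockout, with 5 below 0 and 2 above, and of -0.0016 in the gp130 knockout, with 4 below 0 and 3 above. On the LIFR knockout array 58.3% of all probes were well above background, against 64.3% on the wildtype and 65.4% on the gp130 knockout array. Before scaling, the lowest signal with that call was 16.7 on the LIFR knockout, 10.5 on the wildtype and 9.66 on the gp130 knockout array. The part of the pluripotency markers and of this difference between arrays in the Dnmt3l values was not tested.

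The TET genes gave no common direction, and probes of the same gene disagreed. Tet1, the TET enzyme best known from embryonic stem cells, had 154 ± 15.6 on the wildtype array, 124 ± 12.8 in the LIFR knockout and 112 ± 11.4 in the gp130 knockout. By this probe both knockouts were lower, at -0.31 ± 0.21 and -0.46 ± 0.21. The other Tet1 probe, of the same accession NM_001253857, went the opposite way, with 70.7, 81.7 and 107 and log2 ratios of 0.21 ± 0.22 and 0.60 ± 0.21. The direction of Tet1 is therefore not settled by these arrays, and the position of each probe in the transcript is not given in the sources used here.

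Tet2 had 262 ± 26.3 on the wildtype array, 278 ± 27.98 in the LIFR knockout and 227 ± 22.8 in the gp130 knockout. The LIFR knockout lay within the error of wildtype, at 0.08 ± 0.21, and the gp130 knockout was barely beyond it, at -0.21 ± 0.21. The other Tet2 probe gave 0.22 and 0.02. Tet3 had 321 ± 32.2, 308 ± 30.97 and 378 ± 37.9, with ratios of -0.06 ± 0.21, which turned to 0.06 with scaling to the medians, and 0.23 ± 0.20. Its other probe that was well above background gave 0.32 ± 0.24 and -0.09 ± 0.24, opposite in sign in both comparisons.

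**Figure D2:**
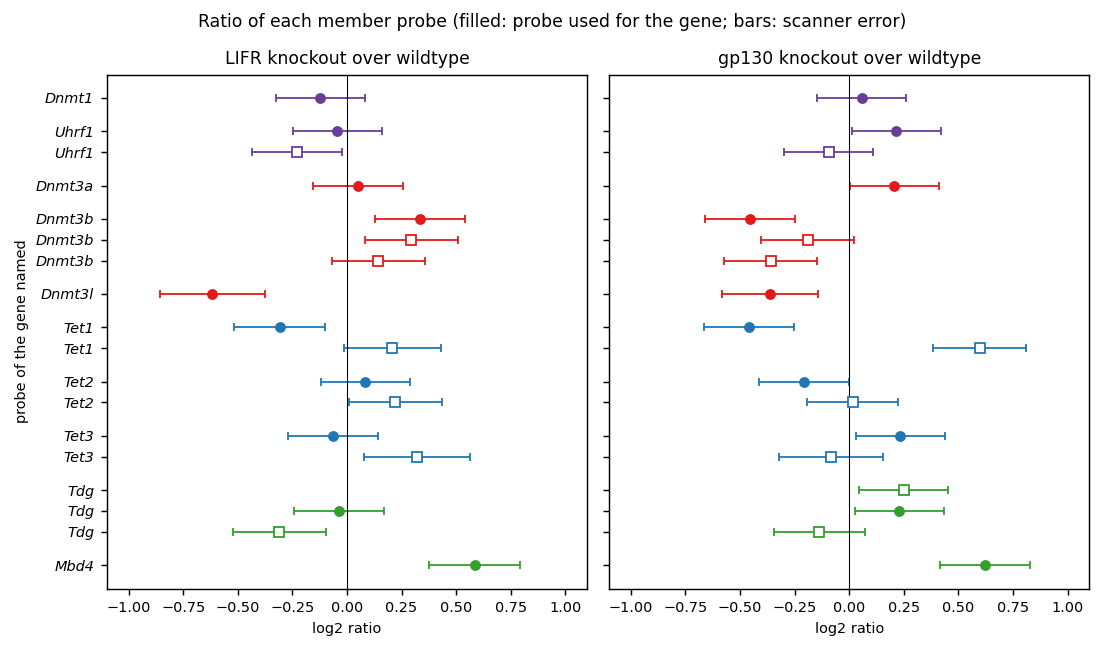
Log2 ratio of each of the 18 member probes well above background, knockout over wildtype, with the scanner error as bars; filled circles are the probes used for the gene, open squares the others, and the Tdg probe with an outlier spot has no LIFR knockout value. The 3 Dnmt3b probes lie right of 0 in the LIFR knockout and left of 0 in the gp130 knockout, while the 2 Tet1 probes lie on opposite sides of 0 in both.

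Of the excision genes, Mbd4 was higher in both knockouts, and the Tdg values differed by probe and array. Tdg had 351 ± 35.1 on the wildtype array, 342 ± 34.3 in the LIFR knockout and 411 ± 41.2 in the gp130 knockout. Its ratios were -0.04 ± 0.20, within the error and turned to 0.09 with scaling to the medians, and 0.23 ± 0.20. The Tdg probe with the highest signal had an outlier spot on the LIFR knockout array and was not used. It gave 0.25 for the gp130 knockout, and with outlier spots kept -0.39 for the LIFR knockout. The third probe gave -0.31 ± 0.21 and -0.14 ± 0.21.

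Mbd4, read by 1 probe of accession NM_010774, had 125 ± 12.7 on the wildtype array, 187 ± 18.96 in the LIFR knockout and 192 ± 19.3 in the gp130 knockout. The knockouts lay within their error of each other, at 0.04 ± 0.21, and both lay above wildtype. The log2 ratios were 0.58 ± 0.21 and 0.62 ± 0.21, and 12.2% and 4.14% of genes measured on both arrays lay at least as far from 0. Both ratios use the same wildtype spot, and 736 of 13115 genes (5.61%) passed 1.25-fold upward in both knockouts. Of the genes that begin or end within 1000 bases of a member's start in the gene table, Ift122, of a protein of ciliary transport, lies 38 bases from that of Mbd4. It had 518, 491 and 558, with ratios of -0.08 ± 0.20 and 0.11 ± 0.20, so this neighbour lay within its error of wildtype on both arrays. The 3 genes nearest to Mbd4 in the pair of ratios, by Euclidean distance over the 2 comparisons and 13115 genes, were Tpp1, at 0.56 and 0.63, Maf1, at 0.56 and 0.64, and Gm1123, at 0.58 and 0.66. As many as 49 genes lay within a distance of 0.1 of Mbd4, and the likeness rests on 3 arrays.

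**Figure D3:**
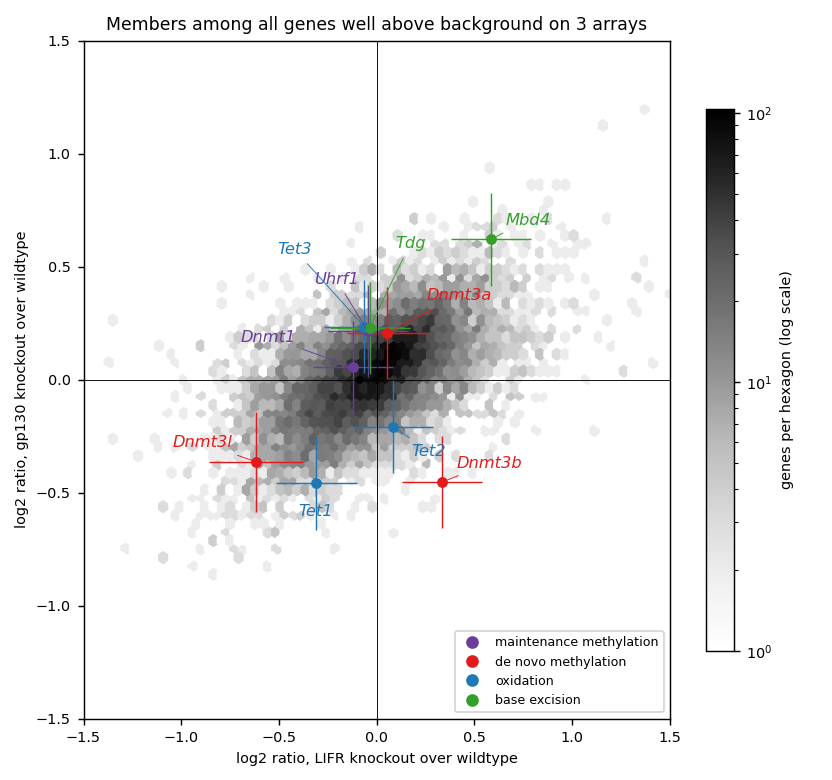
Log2 ratio of the gp130 knockout over wildtype against that of the LIFR knockout over wildtype for the 10 members, with scanner errors, over a density of the 13115 genes well above background on all arrays; genes beyond 1.5 on either axis are not drawn, and both axes share the wildtype array. Mbd4 lies at the upper right at 0.58 and 0.62, Dnmt3l at the lower left at -0.62 and -0.36, and Dnmt3b at the lower right at 0.33 and -0.45.

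Over the members, 0 of 10 were past 2-fold upward and 0 downward in the LIFR knockout, where 2.82% and 1.49% of 14543 genes compared were. In the gp130 knockout the counts were also 0 and 0, against 1.01% and 0.772% of 14891 genes. Scaling to the array medians gave 527 higher and 153 lower genes in all for the LIFR knockout, in place of 410 and 216. It gave 128 and 387 for the gp130 over the LIFR knockout, in place of 183 and 313, where the members had 0 and 0 as well, beside 1.24% and 2.12% of 14752 genes. A fold of 1.25, which was not among the thresholds fixed with the comparisons, was passed upward by 2 members, Dnmt3b and Mbd4, and downward by Dnmt3l in the LIFR knockout, where 15.3% and 18.2% of genes passed it. There Dnmt3b fell short of it under 3 settings, at 0.28 when scaled on the detected probes, 0.27 with normexp fitted without stray signal and 0.29 by the median over its probes. Dnmt3l fell short at -0.30 with that normexp and turned upward to 1.30 with normexp fitted on all spots. In the gp130 knockout Mbd4 passed it upward and 3 members, Dnmt3b, Dnmt3l and Tet1, downward, against 11.8% and 9.79% of genes. Of these, Tet1 passed it upward by its other probe, at 0.60, and did not pass it by the median over its probes, at 0.07. With normexp fitted without stray signal neither Dnmt3l, at -0.09, nor Tet1, at -0.27, passed it in the gp130 knockout. Nor did they with normexp fitted on all spots, at -0.08 and -0.27. Between the knockouts 0 members passed it upward and Dnmt3b downward, against 14.6% and 10.6%.

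A difference beyond 1.96 scanner errors was seen in the LIFR knockout for Mbd4, upward, and Dnmt3l, downward, where 10.9% of 13133 genes measured on both arrays were that far higher and 10.3% that far lower. In the gp130 knockout it was seen for Mbd4, upward, and for Dnmt3b and, by the probe used, Tet1, downward, where 5.49% of 14070 genes were that far higher and 4.41% that far lower. The other Tet1 probe was that far higher, at 0.60 ± 0.21. Between the knockouts it was seen for Dnmt3b, downward, beside 7.44% of 13163 genes upward and 7.41% downward. The members' median ratio was -0.04 in the LIFR knockout and 0.13 in the gp130 knockout, beside 0.01 and 0.03 over the genes measured on both arrays.

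Other genes of the pathway were taken as 80 genes in 9 lists, 68 of them compared. The lists were written with earlier results of these data known, so a list that stands out is no independent finding. In the LIFR knockout 3 were past 2-fold upward and 0 downward, beside 2.82% and 1.49% of all genes, with a median of 0.04. In the gp130 knockout 1 was past it upward and 0 downward, beside 1.01% and 0.772%, with a median of 0.09, and over all genes compared the medians were 0 and 0.04. Counts this small do not set the lists apart from all genes. The 3 higher genes were all of the GADD45 family, stress-induced proteins that have been linked to repair-based demethylation.

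Gadd45g had 799.6 on the wildtype array, 4471 in the LIFR knockout and 970.4 in the gp130 knockout. The LIFR knockout array stood far above the others, with ratios of 2.48 and 0.28. Gadd45b had 4059, 10760.2 and 3139.5, with ratios of 1.41 and -0.37, and was likewise highest on the LIFR knockout array. Gadd45a had 995, 2358.5 and 2056, with ratios of 1.24 and 1.05, and was higher on both. With normexp on all spots Gadd45a and Gadd45b no longer reached 2-fold on the LIFR knockout array, at 0.84 and 0.91, and Gadd45a was at 0.98 on the gp130 knockout array, where it passed 2-fold in 10 of 12 settings. The same list holds Apobec1, of a cytidine deaminase that edits RNA, at -0.26 and 0.18.

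The partners of maintenance methylation had a median of 0.05 in the LIFR knockout and 0.08 in the gp130 knockout, with 0 of 7 past 2-fold. Among them Pcna, the replication clamp, had 0.10 and 0.26, Usp7, which removes ubiquitin from UHRF1 and DNMT1, 0.04 and 0.08, and Pclaf, a clamp-binding protein, 0.23 and 0.01. Regulators of de novo methylation and imprints, with 9 of 11 measured, had medians of 0.08 and 0.10 and 0 past 2-fold. Here Ehmt2 and Ehmt1, of histone H3 lysine 9 methyltransferases, had 0.06 and 0.03 on the LIFR knockout and 0.10 and 0.13 on the gp130 knockout array. Kdm1a, of a histone demethylase, had 0.08 and -0.01. Dppa3 and Prdm14, named after their values had been seen, stayed below the well-above-background call on every array.

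The 7 genes of readers of methylated DNA and their relatives had medians of -0.02 and -0.10 and 0 past 2-fold. Mbd1 was at 0.69 and 0.57. Mbd2 had 0.06 and 0.02, and Mbd3, of the NuRD complex, 0.08 and 0.23. Base excision repair genes, among them other glycosylases and the genes of the later steps, had medians of -0.07 and -0.03 over 11 of 12, with 0 past 2-fold and Neil2 not well above background on any array. Apex1, of the endonuclease that cuts the abasic site, had -0.13 and -0.03, the scaffold gene Xrcc1 0.27 and 0.31, and the uracil glycosylase gene Ung -0.07 and -0.04.

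TET partners and cofactor suppliers had medians of 0.14 and 0.13 over 6 genes, with 0 past 2-fold. Idh1, of a dehydrogenase that makes the TET cofactor alpha-ketoglutarate, had 0.59 and 0.69, Idh2 0.22 and 0.16, and Ogt, of a TET-binding glycosyltransferase, -0.32 and -0.05. Genes of methyl donor supply had medians of -0.18 and -0.01 over 9 of 10, with 0 past 2-fold and Bhmt not well above background on any array. Mat2a, of the catalytic subunit that makes S-adenosylmethionine, was at -0.67 and -0.21, while Mat2b, of its regulatory subunit, was at 0.78 and 0.45, and Shmt2 was at -0.18 and -0.01.

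Of 10 germline genes known to be silenced by promoter methylation, 7 stayed below the well-above-background call on every array. Over all named genes 63.6% had that call on all arrays, and the share without it on every array was not computed. No methylation was measured, so the count does not show silencing by methylation. Of the 3 genes compared 0 were past 2-fold. Taf7l, with 1532, 1939 and 1718, and Sohlh2, with 252, 175 and 251, were well above background on all arrays. Their ratios were 0.34 and 0.16 for Taf7l and -0.52 and -0.0050 for Sohlh2. Tex101 was not well above background on the LIFR knockout array, where the ratio is a bound at -0.61, and was at -0.36 on the gp130 knockout array. Of the replication genes Mcm6 had 0.21 and 0.28, Mcm7 0.03 and 0.27 and Rrm2 -0.26 and -0.08, with 0 of 12 past 2-fold.

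**Figure D4:**
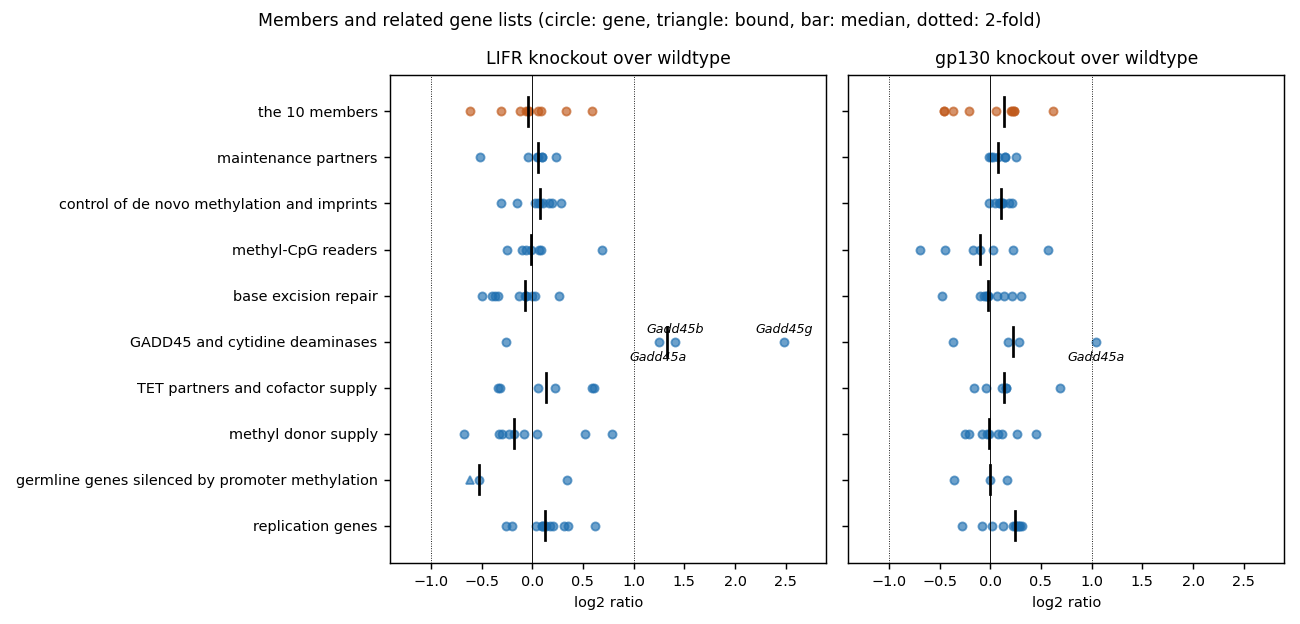
Log2 ratio, knockout over wildtype, of the 10 members (top row) and of the genes of 9 related lists; circles are genes, the triangle a bound, bars the list medians and dotted lines 2-fold. The 3 GADD45 genes lie right of the 2-fold line in the LIFR knockout and Gadd45a alone in the gp130 knockout, while the 10 members lie inside the lines in both.

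Over 12 alternative settings Mbd4 ran from 0.45 to 1.02 on the LIFR knockout array, the highest with normexp on all spots, and from 0.46 to 0.62 on the gp130 knockout array. Dnmt3b ran from 0.27 to 0.54 and from -0.48 to -0.33, with 1 sign in all settings of each comparison.

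**Figure D5:**
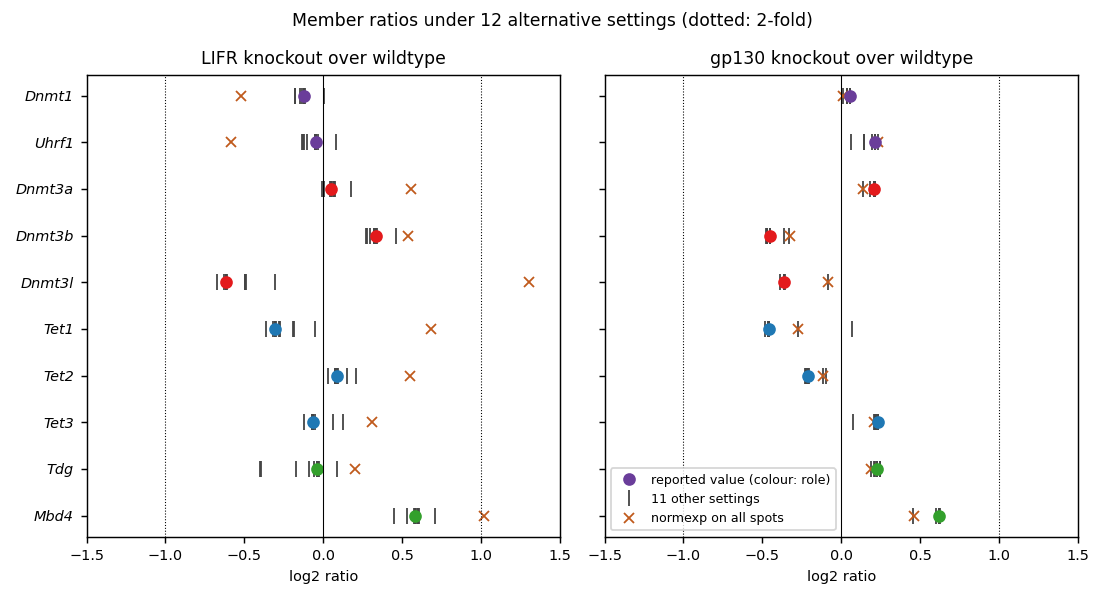
Log2 ratio, knockout over wildtype, of each member as reported (circles), under 11 alternative settings (ticks) and with normexp background correction fitted on all spots (crosses); dotted lines mark 2-fold. The crosses lie far from the other settings on the LIFR knockout array, as for Dnmt3l at 1.30 against -0.62, and near them on the gp130 knockout array.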

How the data were processed

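Values of the 3 arrays were taken as deposited: the intensity is the processed, background-subtracted brightness per spot that Feature Extraction 11.0.1.1 wrote (design 026655, mm9), per the file headers, while version 9.1 stands in the submitters' processing notes. The headers gave 1 distinct scan date. The deposited spot flags are another kind of value, 0 or 1. The series matrix holds the authors' log2 values, whose method is not given in the sources used here. Outlier spots were left out, spots of a probe averaged, and arrays scaled to the 75th percentile of log2 signal over non-control probes. Of the probes 69.1% were named by accession through a gene table of GRCm38.p6, so no array coordinates are given. A gene was compared when well above background on at least 1 of the 2 arrays, and a ratio against a dim array is a bound. The normexp correction (limma 3.58.1, R 4.3.3, offset 50) was fitted with and without stray signal, marked where local background exceeded 2 times the array's median. Ratio calculation was tested on simulated data. Python 3.11.15 was used. With 1 array per group no test was run. Repeated spots of probes with a signal above 40 gave a ratio of 2 spots a 95% half-width of 0.13 to 0.14 on the log2 scale. It rests on the median scatter between spots of an array and leaves out the scatter between cultures. The scanner error of each member ratio is larger than this half-width. The members and lists were chosen with earlier results of these data known. The genes named are the members, list genes past 2-fold or otherwise the 3 brightest of a list, and the 3 nearest in pattern to the member with the largest ratio. Named outside this rule were Lifr, Il6st, the cell type markers, Ift122, Apobec1 and the list genes without a measured value.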

Additional observations from a re-analysis of the deposited data

How the results depend on the processing

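Of 30 member ratios over the 3 comparisons, 16 kept their sign in all 12 alternative settings, and 1 of these settings, keeping outlier spots, was chosen after seeing the data. Normexp fitted on all spots was the setting that took members past 2-fold: it gave 2 higher members, Dnmt3l and Mbd4, on the LIFR knockout array and 1 lower, Dnmt3l, between the knockouts. The members' median was then 0.55 and -0.49 in these comparisons. Fitted without stray signal, normexp gave a median of -0.04 and 0.14. Scaling to the medians moved the median of all genes on the LIFR knockout array to 0.10. The median over probes turned Tet1 on the gp130 knockout array to 0.07. Over all genes, the LIFR knockout counts of 410 higher and 216 lower became 3251 and 102 with normexp on all spots, 131 and 68 without stray signal, and 687 and 949 with no filter. The gp130 knockout counts of 151 and 115 became 11 and 33 with either normexp, 80 and 64 with both arrays above background, and 665 and 585 with no filter. Between the knockouts 183 and 313 became 52 and 3170, 44 and 92, 117 and 193, and 931 and 581 in the same order. No paired analysis was possible because each group has 1 array, and for the same reason no array could be left out.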
